A study of Caenorhabditis elegans with 2 samples.

Results

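NHR-6 binding was recorded at 370 sites on the X chromosome of Caenorhabditis elegans, out of 1662 sites on all chromosomes. The members are all peaks on X, whatever their height, in the optimal set (genome build ce11), which the authors derived from the reproducibility between the replicates. That set equals the 1662 highest peaks of both replicates together, so a single peak need not be found in each replicate. The other 1292 peaks of that set lie on the autosomes, and X was compared with them. Chromatin immunoprecipitation and sequencing (ChIP-seq) had been done against eGFP-tagged NHR-6 in whole L2 larvae that were not separated by sex. The share of males among the larvae was not measured here. There were 2 biological replicates, which form 1 group. The strain, OP90, has the genotype unc-119(ed3) III; wgIs90, where wgIs90 is the integrated transgene for the tagged receptor. Both replicates carry the unc-119 mutation and the transgene, and the sources used here give neither the promoter nor the copy number nor the expressing cells of the transgene. Input and untagged samples were not analysed here, so what part of a peak's signal would be seen without NHR-6 was not tested. Each peak has 1 signal value per list, the authors' own, on a scale that the sources used here do not give, and values are compared only within a list. Peak lists hold no read depth, so depth is unknown.

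NHR-6 is the worm's NR4A nuclear receptor, a family whose members can bind DNA as single molecules at the element AAAGGTCA, which is AGGTCA, the basic word of nuclear receptors, with a pair of A in front. The X chromosome is also regulated as a whole in this animal. In XX hermaphrodites, but not in XO males, a condensin-like dosage compensation complex binds both X chromosomes and lowers their expression. It enters X at recruitment sites, many of which carry copies of a GC-rich word called the MEX motif (motif enriched on X). The word GCGCAGGG is the core of that motif as used here, and sites were searched on both strands.

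The highest X sites are shown first because many of them share that core. The sequences below are windows of 101 bp centred on the summit, the position of highest signal, read from the reference of build ce11 (WBcel235) on the plus strand. Capitals mark the core (GCGCAGGG, or CCCTGCGC on the other strand) and a related word described further on (GCGAAGGG, or CCCTTCGC). The first 8 are all the windows with the core among the 20 highest X peaks, by signal, and the last 2 are the highest windows without it.
Upstream of xol-1 (chrX:8036382-8036482): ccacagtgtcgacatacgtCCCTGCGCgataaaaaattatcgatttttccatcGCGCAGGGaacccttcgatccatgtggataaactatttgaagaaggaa
Near W02H3.3 (chrX:11094167-11094267): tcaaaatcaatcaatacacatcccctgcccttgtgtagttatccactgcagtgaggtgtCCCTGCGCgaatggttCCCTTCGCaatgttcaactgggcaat
Intron of Y41G9A.17 (chrX:2997073-2997173): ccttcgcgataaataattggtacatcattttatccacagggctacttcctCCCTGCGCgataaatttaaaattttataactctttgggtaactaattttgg
Upstream of nspc-17 (chrX:14525865-14525965): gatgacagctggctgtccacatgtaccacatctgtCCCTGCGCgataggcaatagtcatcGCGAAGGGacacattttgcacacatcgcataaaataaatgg
Intron of mom-1 (chrX:6296531-6296631): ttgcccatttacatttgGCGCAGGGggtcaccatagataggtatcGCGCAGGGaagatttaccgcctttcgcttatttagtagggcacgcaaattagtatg
Near F20B6.9 (chrX:4209212-4209312): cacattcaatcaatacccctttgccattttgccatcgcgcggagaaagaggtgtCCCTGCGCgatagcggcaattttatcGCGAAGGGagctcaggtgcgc
Near gtr-1 (chrX:806643-806743): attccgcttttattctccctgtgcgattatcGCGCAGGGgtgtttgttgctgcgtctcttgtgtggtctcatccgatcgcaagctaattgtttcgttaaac
Upstream of ins-39 (chrX:1344983-1345083): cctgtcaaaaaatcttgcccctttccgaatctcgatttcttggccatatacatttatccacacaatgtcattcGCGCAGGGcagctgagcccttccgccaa
Near K02D3.1 (chrX:13700819-13700919): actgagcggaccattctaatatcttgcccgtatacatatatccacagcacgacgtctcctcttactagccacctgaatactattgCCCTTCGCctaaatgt
Near ZK899.6 (chrX:9465826-9465926): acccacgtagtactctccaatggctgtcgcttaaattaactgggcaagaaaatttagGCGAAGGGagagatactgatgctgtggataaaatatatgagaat

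The core was far more frequent at X summits than at autosomal ones. It lay in 13 of 370 X windows (3.51%, 95% exact interval 1.88 to 5.93%) and in 1 of 1292 autosomal windows (0.0774%, 0.00196 to 0.430%). Fisher's exact test, two-sided and adjusted over the 6 motifs searched, gave an adjusted p of 1.875e-07. The single autosomal window lay 844 bp upstream of cox-6A on III, a gene for a cytochrome c oxidase subunit, with a signal of 105.4. Windows moved 250 bp to either side held the core in 1 of 740 cases on X (0.135%) and in 1 of 2584 on the autosomes (0.0387%). Among all windows of the same length tiled over the chromosomes, 68 of 175435 held it on X (0.0388%) and 215 of 817362 on the autosomes (0.0263%).

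All copies in the genome were also taken as the starting point. For the optimal set this counts again the copies in the windows above, so it is not separate support. X holds 81 copies of the core (4.57 per Mb) and the autosomes hold 233 (2.82 per Mb). A summit of the optimal set lay within 50 bp of the copy's midpoint for 15 of the 81 X copies (18.5%) and for 1 of the 233 autosomal copies (0.429%; Fisher's exact test, two-sided, p = 6.673e-09). Among the 30000 peaks of the relaxed lists, which include weak candidates, replicate 1 had a summit that near for 20 X copies (24.7%) and 4 autosomal copies (1.72%; exact p = 1.071e-09). Replicate 2 had one for 17 of the X copies and 7 of the autosomal copies ( exact p = 1.760e-06). The difference between X and the autosomes was thus present in each replicate, although most X copies had no optimal summit that near.

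Core-bearing windows were concentrated among the highest X peaks. The 20 highest X peaks included 8 of them (40%), the next 80 included 2 (2.5%) and the remaining 270 included 3 (1.11%). The median signal of the 13 was 369.2, ranging between 70.8 and 720.1, against a median of 77.2 for the 357 X windows without the core. In replicate 1 the medians were 262.9 with the core and 61.1 without it, and in replicate 2, over the peaks it recovered, they were 100.1 and 20.1. Without the 100 highest peaks of the whole set, a cut chosen after the data were seen, the core was still in 1.45% of X windows and 0.0821% of autosomal windows (exact adjusted p = 0.0149). The X windows left include the weaker summit in the intron of Y41G9A.17, 199 bp from a removed peak with a signal of 533.4. They also include the site near dpy-23, which had no relaxed peak in replicate 2. Within 200 bp of the summit, 11 of the 20 highest X peaks had a core copy, and 20 of all 370.

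**Figure D1:**
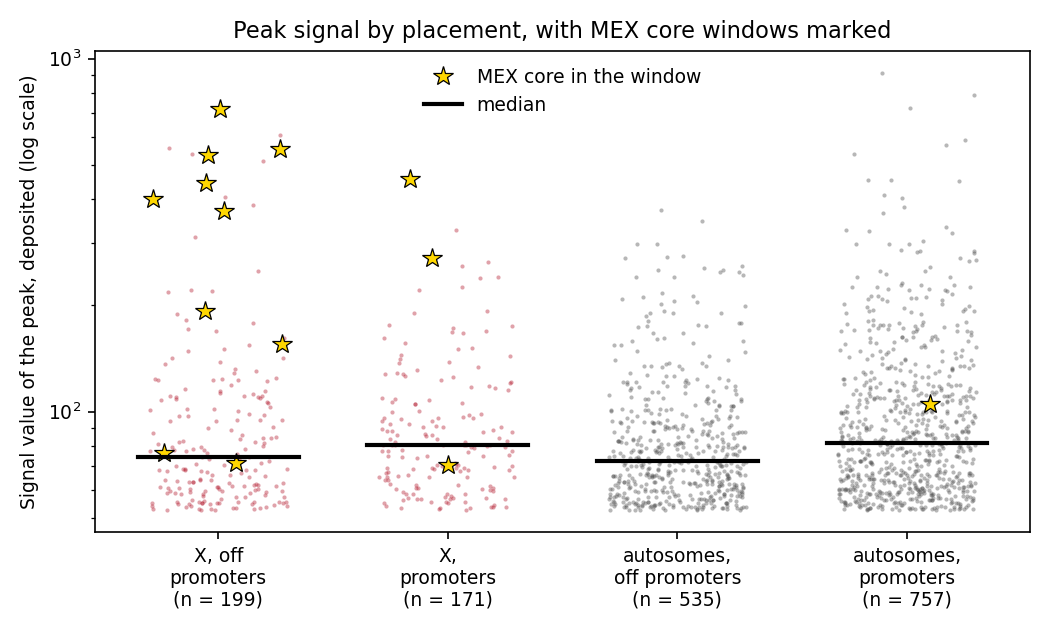
Deposited signal value of each optimal peak (log axis) for X and autosomal peaks off promoters and in promoter windows, 1 point per peak, with black lines at the medians and stars at windows with the MEX core. Of the 13 X stars 10 are off promoters, and 8 belong to the 20 highest X peaks, with signals of at least 271.8.

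Copies of the core sat close to the summit and shared bases beyond the searched word. The 13 windows hold 15 copies, since the windows near xol-1 and in the intron of mom-1 have 2 each. Their midpoints lay between 30 bp to the left and 26 bp to the right of the summit. The base just before the core was C in 12 of the 15 copies and the base before that was T in 12. The base just after the core was A in 12. The search had used none of these flanking bases.

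**Figure D2:**
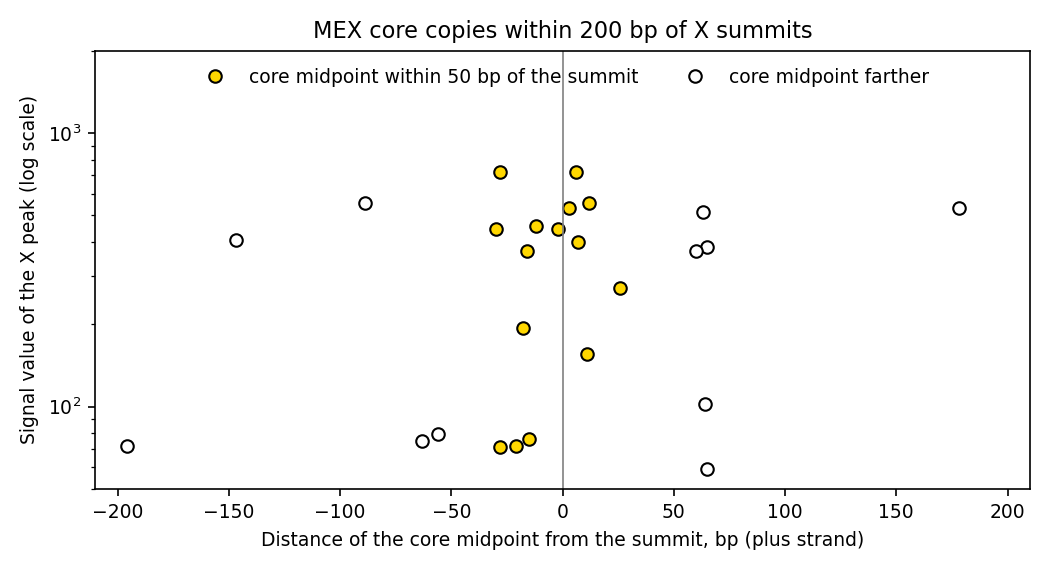
Distance in bp of each MEX core copy's midpoint from the summit of an X peak (x axis, plus strand, copies within 200 bp) against that peak's deposited signal (log axis). Filled points, within 50 bp of the summit, are the 15 copies in the summit windows, and open points are copies farther from the summit, some of them beside the same peaks. Copies in the intron of Y41G9A.17 appear both filled and open, because its summits at 2997123 and 2997322 lie 199 bp apart.

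A comparison of all 8-base words in the same windows, which started from no known motif, also called the core. For the core itself it repeats the counts of the motif search above, so it is not separate support. Of 3553 words found in at least 10 windows, 5 differed between X and autosomal windows at an adjusted p under 0.05 (0.141%), all more frequent on X. Given with the number of X windows, the number of autosomal windows and the exact adjusted p, these were CCTGCGCG (14 and 1, 2.574e-05), CCCTGCGC, which is the core itself (13 and 1, 5.552e-05), CTGCGCGA (14 and 3, 2.480e-04), CGCAGGGA (14 and 6, 0.00541) and CCCTTCGC (11 and 3, 0.00787). The first 4 overlap one another along the core. No word passed as less frequent on X (0%), where 111 of the 2092 tested had an unadjusted exact p under 0.05. The lowest p values in that direction belonged to CTCTCGGA and GAGGAGTA (0 X and 33 autosomal windows each, exact adjusted p = 0.134), followed by AGGAGTAC, CCGAGAGG and ACTCCTCT.

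The fifth word, GCGAAGGG when read on the other strand, differs from the core by the substitution C4A, counted from the first base of GCGCAGGG. It was in 7 of the 20 highest X peaks and in 11 X windows in all, 3 of which also held the core. At least 1 of the 5 words was present in 26 X windows (15 of the 20 highest X peaks) and in 14 autosomal windows. The 5 peaks of the 20 with none of them were those near F19H6.5, puf-9, sma-9, rpl-11.2 and ain-1. A further word, TTATCCAC, was picked out after the X windows had been looked through and is given without a test: it lay in 6 X windows, 5 of them among the 20 highest and 4 with the core, and in 0 autosomal windows.

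The element of the NR4A family itself was rare at both kinds of site. AAAGGTCA lay in 4 of 370 X windows (1.08%) and 4 of 1292 autosomal windows (0.310%), a difference that did not pass (Fisher's exact test, two-sided, adjusted p = 0.118). Its share in the windows 250 bp away was 0.541% on X and 0.503% on the autosomes. The 4 X windows were upstream of F17E5.2 (signal 221.4) and of akt-2, a kinase of insulin signalling (95.6), near the collagen gene col-166 (81.9) and in an intron of scd-1 (55.2). None of the 4 held the MEX core, and none was among the 20 highest X peaks. The bare AGGTCA was in 3.51% of X and 2.71% of autosomal windows (exact adjusted p = 0.461).

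Of the other words searched, the GA repeat GAGAGAGA was in 22 X windows (5.95%) and 139 autosomal windows (10.8%; exact adjusted p = 0.0153). Off promoters, 11 of 199 X windows (5.53%) and 90 of 535 autosomal windows (16.8%) held it (exact p = 3.375e-05, not adjusted). In promoter windows the shares were 6.43% on X and 6.47% on the autosomes. The GA difference did not pass in the upper part of the set by signal or with either replicate left out. The B box GGTTCGA, an internal promoter word of tRNA genes, was in 10 X and 14 autosomal windows (exact adjusted p = 0.0867), and the E box CACGTG in 24 and 73 (0.531).

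The X chromosome held more peaks than its length would give. Peaks on X were 22.3% of the set (95% exact interval 20.3 to 24.3%), and X is 17.7% of the length of the 6 nuclear chromosomes. The density was 20.9 peaks per Mb on X and 15.7 on the autosomes, a ratio of 1.33 (95% interval from 1.19 to 1.499; exact binomial test, two-sided, p = 1.875e-06). Chromosome III, with 21.1 peaks per Mb, was as dense as X, and V had the lowest density with 9.56. The 1662 highest peaks of replicate 1 gave an X share of 22.8% (exact p = 1.064e-07), while those of replicate 2 gave 18.7% (exact p = 0.274). Replicate 2 showed an excess over length among its 5000 highest peaks (19.5%, exact p = 7.904e-04) and over its whole relaxed list (18.7%, exact p = 1.788e-06), where weak candidates are included.

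At the top of the ranking the X share was high in both replicates. X held 10 of the 20 highest peaks of the optimal set and of replicate 1, and 12 of the 20 highest of replicate 2 (exact binomial p = 9.661e-04 in the first 2 lists and 2.828e-05 in the last). Among the 200 highest the X share was 22.5% in the optimal set, 25% in replicate 1 and 19% in replicate 2. X peaks were not higher in general: the median signal was 77.6 on X and 77.2 on the autosomes, and 50.5% of X and 49.8% of autosomal peaks were among the 831 highest peaks of the set (Fisher's exact test, two-sided, p = 0.860).

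**Figure D3:**
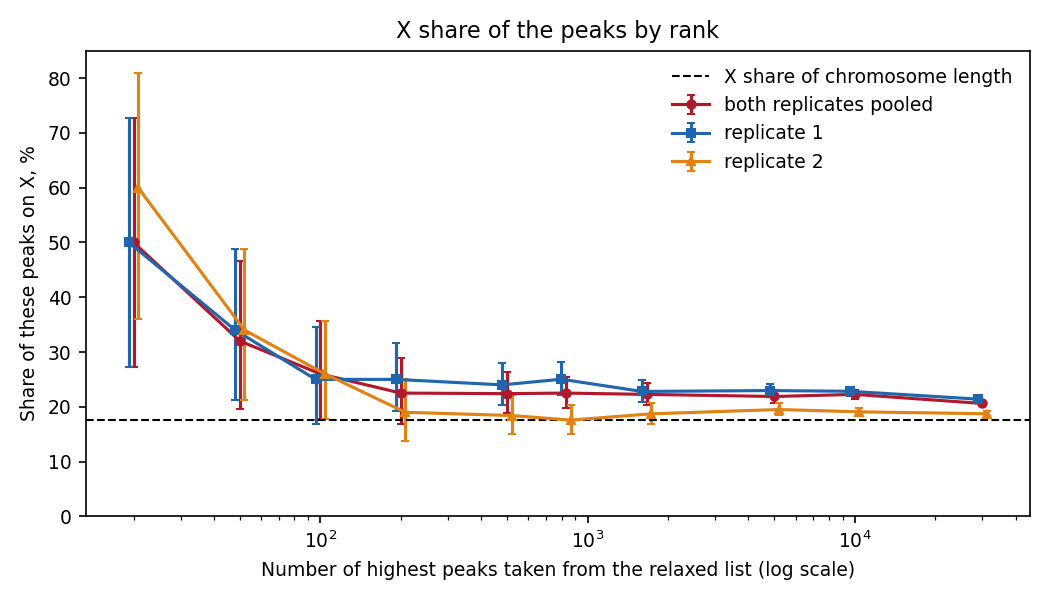
Share of peaks on X (y axis, with exact 95% intervals) among the highest peaks of the pooled list and of each replicate (x axis, log scale, points shifted slightly for clarity), with the X share of chromosome length as a dashed line. All 3 lists start at 50% or more among 20 peaks, and replicate 2 is near the line by 200 peaks while replicate 1 stays above it.

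Individual X peaks were less often recovered in replicate 2. A peak among the 1662 highest of replicate 2 lay within 100 bp of 195 X summits (52.7%) and of 803 autosomal summits (62.2%; Fisher's exact test, two-sided, p = 0.00115). In replicate 1 these counts were 323 (87.3%) on X and 1096 (84.8%) on the autosomes (exact p = 0.278). No peak among the 1662 highest of either replicate lay that near for 23 X summits (6.22%) and 59 autosomal summits (4.57%). Of the 370 X peaks, 299 had any relaxed peak in replicate 2 and 367 had one in replicate 1. The 20 highest X peaks were recovered in both replicates, none below rank 121 in the list of replicate 1 or below rank 342 in that of replicate 2.

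Most of the 20 highest X peaks lay away from promoters, as did most X peaks of any height. A promoter window covered 1000 bp before and 200 bp after the 5′ end of each protein-coding transcript in Ensembl release 115. Outside such windows were 14 of the 20 and 199 of all 370 X peaks, and the 20 were not tested against the rest for this. The highest, near xol-1, whose product sets male or hermaphrodite fate early in development, had a signal of 720.1 in the optimal set, 525.1 in replicate 1 and 213.2 in replicate 2. It was intergenic, 4881 bp upstream of xol-1 and 242 bp upstream of the small non-coding gene C18A11.13. The next was intergenic near K02D3.1, with 609.6 in the optimal set, 470.8 in replicate 1 and 169.3 in replicate 2. Both were among the 7 highest peaks of each replicate's whole list.

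Other intergenic peaks among the 10 highest on X lay near genes of no named role. The site near ZK899.6 had 559.7 in the optimal set, 390.4 in replicate 1 and 171.3 in replicate 2, and the site near W02H3.3 had 554.5, 431.3 and 133.9. The sites near F55G7.5 (536.7, 414.2 and 126.4), F22H10.2 (512.3, 396.3 and 116.8) and F19H6.5 (406.1, 269.3 and 137.3) lay 1384, 2572 and 1715 bp downstream of the nearest 5′ end. All 5 were between rank 6 and rank 28 in each replicate's list. Of the 5, the site near W02H3.3 alone had the core in its summit window, and the sites near F22H10.2 and F19H6.5 had a copy 63 and 147 bp from the summit.

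Few of the 20 peaks lay in introns or coding exons. The same held over all 370 X peaks, with 60 in introns (16.2%) and 1 in a coding exon (0.270%). In the intron of Y41G9A.17 the signal was 533.4 in the optimal set, 336.4 in replicate 1 and 200.05 in replicate 2. In the intron of mom-1, whose product is needed to secrete Wnt ligands, it was 444.9, 323.5 and 122.8. The only X summit in an annotated coding exon, promoter windows included, lay in pks-1, a polyketide synthase gene, with 384.5, 296.5 and 87.9, and a core copy lay 65 bp away. Coding exons make up 16.4% of the X sequence.

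The 6 promoter peaks among the 20 were at genes of unlike roles. The site 734 bp upstream of nspc-17, of a family of short nematode-specific peptides, had 455.7 in the optimal set, 340.7 in replicate 1 and 130.8 in replicate 2. The site 612 bp upstream of ins-39, an insulin-like peptide gene, had 271.8, 188.5 and 78.6. These 2 carried the core, and the site 992 bp upstream of fbxb-58, an F-box gene, carried GCGAAGGG (241.1, 165.6 and 78.1). Without any of the 5 words were puf-9, for an RNA-binding protein of the Pumilio family (327.3, 257.6 and 73.4), and the ribosomal protein gene rpl-11.2 (265.4, 205.0 and 64.7). The same held for ain-1, a cofactor of microRNA silencing (259.4, 224.9 and 33.0).

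The remaining 4 of the 20 were intergenic. Near F20B6.9, 1777 bp upstream, the signal was 399.6 in the optimal set, 313.4 in replicate 1 and 96.0 in replicate 2. Near gtr-1 it was 369.2, 262.9 and 104.1. The site 2915 bp upstream of sma-9, a zinc-finger gene of body size signalling, had 312.6, 249.5 and 65.8, and the site near T27A8.7 had 249.6, 147.8 and 102.6. The first 2 carried the core and the sma-9 site carried none of the words.

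Over all 370 X peaks, placement differed from that of the pooled autosomal peaks. Promoter windows held 171 X summits (46.2%, 95% exact interval 41.05 to 51.4%) and 757 autosomal summits (58.6%, 55.8 to 61.3%; Fisher's exact test, two-sided, adjusted over 7 classes, p = 2.174e-04). Intergenic sequence held 117 X summits (31.6%) and 279 autosomal summits (21.6%; exact adjusted p = 3.556e-04). Coding exons held 1 (0.270%) and 28 (2.17%; exact adjusted p = 0.0264), a call that was lost among the 831 highest peaks (0.535% and 1.24%, exact adjusted p = 0.987) and without replicate 1 (0.965% and 2.22%, 0.316). Introns (60 X summits, 16.2%, and 174 autosomal, 13.5%), 3′ UTRs (3 and 10) and 5′ UTRs (0 and 8) did not pass. Non-coding genes held 18 X summits (4.86%) and 36 autosomal summits (2.79%; exact adjusted p = 0.114), and this class passed as higher on X among the 831 highest peaks (6.42% and 2.48%, exact adjusted p = 0.0427), without replicate 1 (5.47% and 1.85%, 0.00208) and without replicate 2 (5.80% and 2.73%, 0.0139). Of the single autosomes, IV was close to X, with 51.8% of its peaks in promoter windows and 29.0% in intergenic sequence, and on I, II, III and V promoter windows held between 58% and 64.6%.

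The promoter and intergenic shares differed in the same direction as the make-up of the chromosomes. Promoter windows cover 21.8% of X and 27.2% of the autosomes, and intergenic sequence covers 29.3% and 19.9%. The share of summits divided by the share of bases was 2.12 on X and 2.15 on the autosomes for promoters, and it was 1.08 on both for intergenic sequence. In a comparison of odds relative to the bases, added after the data were seen, the promoter odds ratio of X to autosomes was 0.812 (95% interval 0.643 to 1.02) and the intergenic one was 1.01 (0.781 to 1.30). The intron odds ratio was 1.35 (0.978 to 1.85), and all 3 intervals hold 1. For coding exons the share of summits divided by the share of bases was 0.0165 on X and 0.114 on the autosomes, and for non-coding genes it was 1.63 and 0.787. Gene spacing also differs, with 154.1 protein-coding genes per Mb on X and 208.9 on the autosomes.

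**Figure D4:**
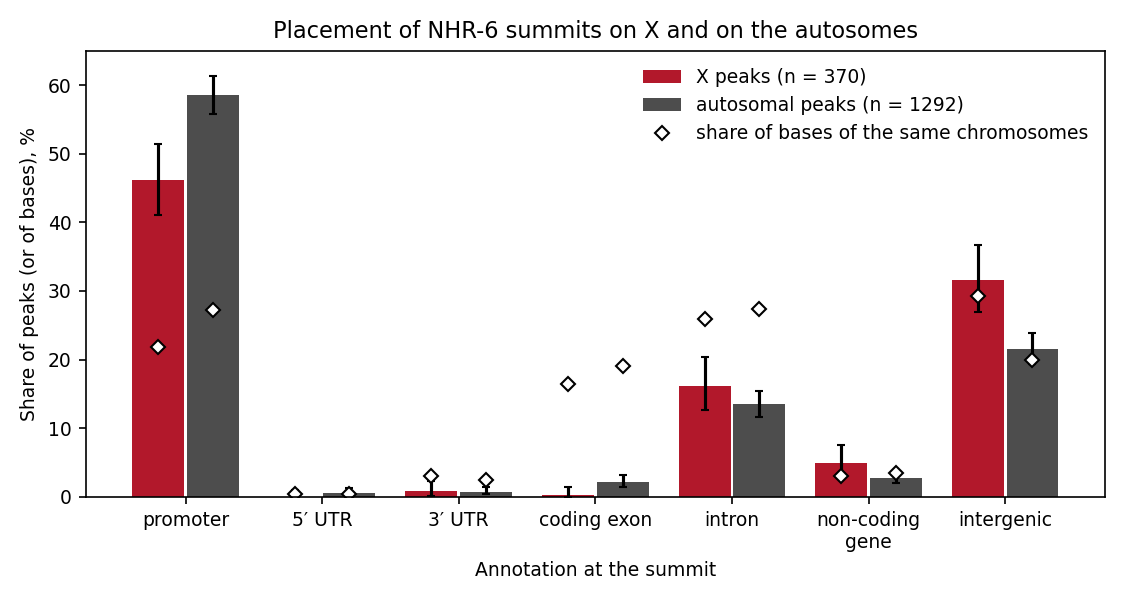
Share of X and autosomal summits in each annotation class (bars, with exact 95% intervals) and the share of bases of the same chromosomes in that class (diamonds). The promoter bar is lower and the intergenic bar higher on X than on the autosomes, and the diamonds differ in the same directions.

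X promoter peaks rarely served more than 1 gene. Of the promoter summits, 15 of 171 on X (8.77%) and 266 of 757 on the autosomes (35.1%) were shared by the windows of at least 2 genes (Fisher's exact test, two-sided, p = 2.172e-13). Of the bases in promoter windows, 4.51% on X and 11.3% on the autosomes belong to the windows of at least 2 genes. Summits were a median of 992.5 bp from a 5′ end on X and 465 bp on the autosomes. Off-promoter peaks reached a signal of 720.1 on X and 373.6 on the autosomes, and 17 of 199 X and 19 of 535 autosomal off-promoter peaks were among the 100 highest of the set (exact p = 0.0110, a cut chosen after the data were seen). Among the 166 highest they were 11.1% and 6.73% (exact p = 0.0642).

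On X the MEX core had a higher share off promoters than in promoter windows, a difference that did not pass. It was in 10 of 199 off-promoter X windows (5.03%) and 3 of 171 promoter X windows (1.75%; Fisher's exact test, two-sided, p = 0.0986). Off promoters the comparison between X and the autosomes was 10 of 199 windows against 0 of 535 (exact adjusted p = 1.088e-05), and in promoter windows it was 3 of 171 against 1 of 757 (1.75% and 0.132%; exact adjusted p = 0.127). The third promoter window with the core, 6 bp downstream of the 5′ end of R04E5.9 and also in the window of cnnm-2, with a signal of 70.8, and the intergenic ones near col-185 (192.9), T24D8.6 (155.6) and dpy-23 (76.2) are named because so few core windows lay outside the 20 highest.

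A protein-coding gene is called bound here where a summit lay in its promoter window. On X 183 of 2731 genes were bound (6.70%), against 1003 of 17242 on the autosomes (5.82%; Fisher's exact test, two-sided, p = 0.0739) and 5.94% of genes on all chromosomes. Bound means a neighbouring peak only, and no effect on expression was measured. The lists below are described by counts against that background, with no test.

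Regulators of X itself and of sex had 1 bound member of 6. On the autosomes it was 0 of 11. The bound gene was sdc-2, whose product brings the dosage compensation complex to X in hermaphrodites, with a summit 404 bp upstream (137.5 in the optimal set, 114.8 in replicate 1 and 31.3 in replicate 2). No summit lay in the windows of xol-1, sdc-1 or the X signal elements sex-1, fox-1 and ceh-39. Their nearest summits were 4881, 65841, 7965, 16102 and 53406 bp from a 5′ end.

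Transcription factor families on X varied from all to none of their members bound. All 3 X-linked bZIP genes on the list were bound, against 7 of 19 on the autosomes, namely the C/EBP gene cebp-1 (118.3 in the optimal set, 106.9 in replicate 1 and 14.3 in replicate 2), atf-4 (69.2) and atf-6, a gene of the endoplasmic reticulum stress response (63.9). The last 2 had no relaxed peak in replicate 2. Of the nuclear receptor genes, to which nhr-6 belongs, 6 of 23 were bound on X (26.1%) and 11 of 246 on the autosomes (4.47%). The X members by signal were nhr-40 (109.1), nhr-1 (107.6), nhr-32 (92.5) and nhr-35 (68.7), with nhr-3 (60.3) and nhr-48 (53.3) below them. The nhr-48 site had no relaxed peak in replicate 1, where the other receptors ranked between 363 and 947. In replicate 2 the ranks were 1166 (nhr-1), 1457 (nhr-40), 2248 (nhr-32), 2303 (nhr-48), 5751 (nhr-35) and 10726 (nhr-3). The 6 thus include peaks low in the relaxed list of replicate 2. The highest of these receptor peaks, at nhr-40, had rank 95 among the 370 X peaks. None of the 18 X-linked homeobox genes of the ceh series was bound, against 2 of 45 on the autosomes.

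Genes of larval timing, signalling and the synapse gave small counts. Of 5 heterochronic genes and microRNA cofactors (3 of 9 on the autosomes), ain-1 and lin-14, a nuclear factor that sets early larval fates, were bound (lin-14 with 82.1 in the optimal set, 64.7 in replicate 1 and 20.1 in replicate 2). The vulval list had 1 of 6 (1 of 7 on the autosomes), the fibroblast growth factor gene egl-17 (59.3), and the Wnt list 1 of 2 (2 of 13 on the autosomes), mom-1 (58.4), at a promoter summit apart from its intron peak. Of 18 synaptic and neuronal genes, unc-18 (70.6) and the active zone gene syd-2 (58.5) were bound on X (11.1%), against 3 of 11 on the autosomes (27.3%). The syd-2 site had no relaxed peak in replicate 2, where the unc-18 site ranked 4283. The linker histone gene his-24 (75.5) was the 1 bound of 4 histone genes on X, against 8 of 68 on the autosomes. The gene rpl-11.2 was the 1 of 2 X-linked ribosomal protein genes, against 43 of 79 on the autosomes, and nspc-17 was the 1 of 18 NSPC genes, all of which are on X.

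For 5 further X-linked lists no member was bound. They were the vitellogenins (0 of 5), which encode yolk proteins, muscle genes (0 of 6), neuropeptide genes (0 of 32), collagens (0 of 27), and acetylcholine receptor and ligand-gated channel genes (0 of 24). On the autosomes the counts for the same lists were 0 of 1, 0 of 9, 1 of 70, 2 of 129 and 0 of 53. None of the 5 lists was tested against the 6.70% of all X genes. With so few members in each, a count of 0 does not set any of them apart from that share.

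Non-coding genes on X were also near summits, judged by the same window at their 5′ ends. Over all classes 180 of 3291 X genes had one (5.47%), against 694 of 26917 on all chromosomes (2.58%). The second share is lowered by 15201 autosomal piRNA genes, of which 133 had one (0.875%). Without piRNA genes it was 5.66% on X (177 of 3129) and 4.52% on the autosomes (381 of 8425). Both shares still include the tRNA genes, for which X and the autosomes were far apart. Transfer RNA genes, whose products carry amino acids to the ribosome, had one in 43 of 276 cases on X (15.6%) and 8 of 336 on the autosomes (2.38%), and 34 X summits accounted for the X genes. The 2 with the highest signal were WBGene00022947 (225.0 in the optimal set, 180.7 in replicate 1 and 44.3 in replicate 2) and WBGene00023042 (189.3, 155.2 and 34.3). The first of these summits was also in the promoter window of C28G1.2.

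MicroRNA genes had a summit in 9 of 74 cases on X (12.2%) and 17 of 187 on the autosomes (9.09%), and 6 X summits accounted for the X genes. The highest was a single summit in an intron of F09A5.3 next to the clustered genes mir-54 and mir-55 (signal 162.0 in the optimal set and 166.2 in replicate 1, with no relaxed peak in replicate 2). It was also counted for mir-56, named because it shares that summit. Small nucleolar RNA genes had 6 of 33 (18.2%) and 59 of 313 (18.8%), led on X by T27A8.8 (249.6) and D2021.6 (168.1). Long intergenic RNA genes had 4 of 38 and 14 of 156, led by linc-78 (265.4, the rpl-11.2 summit) and linc-118 (78.1). Of the other non-coding RNA genes, the largest class on X, 4.56% had one on X and 4.84% on the autosomes, led on X by C18A11.13 (720.1) and W06B11.7 (327.3, the puf-9 summit). Genes of piRNAs had 3 of 162 on X (1.85%), led by 21ur-14870 (63.0) and 21ur-12013 (54.6). Pseudogenes (0 of 178), antisense RNAs (0 of 7) and snRNAs (0 of 3) had none on X, against 12 of 1950, 3 of 93 and 14 of 126 on the autosomes.

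The share of summits with a close neighbour did not differ detectably between X and the pooled autosomes. Another summit lay within 1000 bp for 41 of 370 X peaks (11.1%) and 127 of 1292 autosomal peaks (9.83%; Fisher's exact test, two-sided, p = 0.494). The median gap between neighbouring X summits was 28078 bp, and the longest, from 3371587 to 3788752, was 417165 bp. The nearest pair on X lay 199 bp apart, at 2997123 and 2997322 in the intron of Y41G9A.17, with signals of 533.4 and 71.7. Both summits of that pair had the core in their window, each its own copy.

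Close X summits formed 18 pairs and 1 group of 5. The group, named after its values were seen, spans 2813 bp from 6741202 to 6744015 around mdl-1, which encodes a bHLH factor of the Mad family. Its 5 signals were 52.7, 94.4, 90.5, 123.3 and 169.2 from left to right in the optimal set. In replicate 1 they were 54.5, 60.3, 82.0, 99.9 and 121.7. In replicate 2 the first summit had no relaxed peak and the others had 35.5, 10.1, 21.5 and 59.3. None of these 5 summits was among the 20 highest, and the largest signal lay 1664 bp downstream of the 5′ end.

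Peaks were not spread evenly along X. With each chromosome divided into 10 equal pieces, the densest piece of X was the eighth, with 59 peaks (33.3 per Mb), and the sparsest was the third, with 25 (14.1 per Mb). The densest autosomal pieces had 29.2 peaks per Mb. By megabase, 36 X summits lay between 13000001 and 14000000 and 33 in the next, against 11 between 3000001 and 4000000. Of the 36, 13 were promoter peaks, and of the 33, 21 were. The evenness along the chromosome was not tested.

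**Figure D5:**
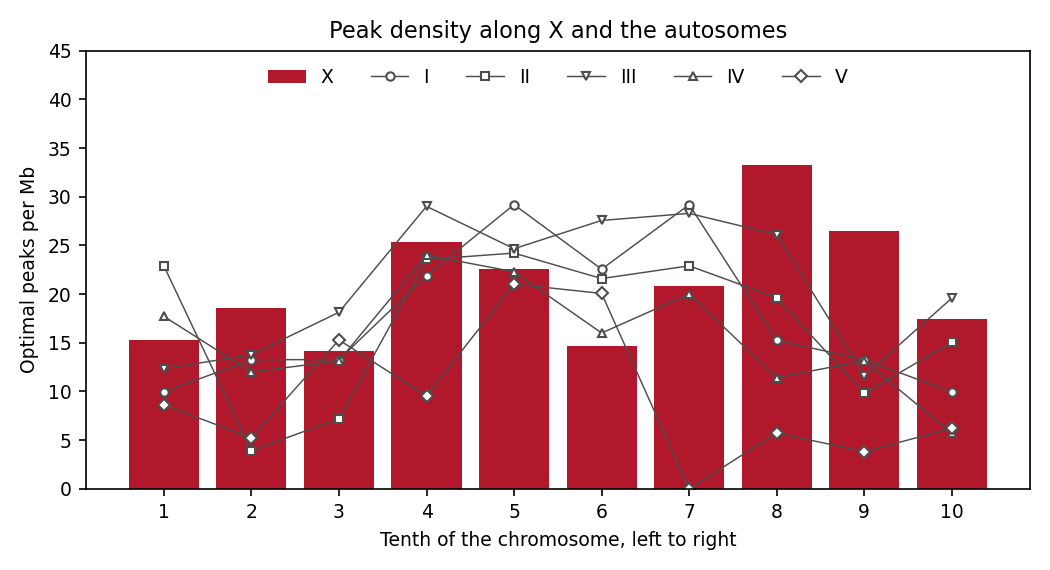
Optimal peaks per Mb (y axis) in 10 equal pieces of X (bars) and of the 5 autosomes (lines with open symbols), from the left end of each chromosome. The eighth piece of X is the highest at 33.3 per Mb, above the autosomal maximum of 29.2.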

How the data were processed

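ChIP-seq peak lists of 2 biological replicates of OP90 L2 larvae were analysed, with replicate numbers taken from the labels. Per the file list deposited with each sample, the authors made relaxed lists per replicate and for both together, and derived the optimal set with the irreproducible discovery rate (IDR). Not given in the sources used here were the aligner, the peak caller, the IDR threshold and the signal scaling. The signal value of each deposited peak is the authors' own, and peaks were ranked, filtered and described by it inside 1 list at a time. The optimal set equals the 1662 highest pooled peaks, so X shares of both are the same. Read depth is unknown, and exact intervals (Clopper-Pearson, 95%) cover counting error only.

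Computed here were the summits, their annotation (RefSeq sequence of WBcel235, which equals ce11, and Ensembl release 115), distances, words on both strands in 101 bp summit windows, exact binomial tests and two-sided Fisher's exact tests. Benjamini-Hochberg adjustment at 0.05 ran over 7 classes, 6 motifs or all 3553 words in at least 10 windows. A summit in several classes took the first of promoter, 5′ UTR, 3′ UTR, coding exon, intron, non-coding gene and intergenic. P-values over peaks describe these 2 samples, since peaks are not replicates. The biological replicates are separate samples per the labels. Odds relative to bases used a normal approximation on the log odds over all peaks.

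The members, lists, words and tests were chosen with earlier results of these data known. Named were the 20 highest X peaks, up to 4 bound X-linked members of each of 16 lists by signal (all 6 receptors are given), the 5 words with the lowest p in each direction, the nearest X pair and longest gap, and the 2 highest non-coding genes of each class. Others are said to be named after their values were seen. Alternatives were the 831 highest peaks, each replicate left out (the 1662 highest of the other), build ce10, other promoter windows, distances, summit windows and forms of the words. The procedures were tested on simulated windows. Python 3.11.15, scipy 1.17.1, numpy 2.4.6 and pandas 2.3.3 were used.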

Additional observations from a re-analysis of the deposited data

How the results depend on the processing

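The excess of the MEX core on X kept its direction and passed its test among the 831 highest peaks, with each replicate left out, in windows of 25 and 100 bp to either side, off promoters and with a base removed from either end. In promoter windows alone it missed the threshold (1.62 percentage points higher on X, exact adjusted p = 0.127). The lower promoter share on X also kept its direction, and passed in every setting but the comparison relative to bases (ratios of 2.12 and 2.15, a difference of -0.0389). With a replicate left out, the X share exceeded the share of length by 1.04 to 5.13 points, the lower value without replicate 1. The difference in bound genes ranged from -0.921 to 0.991 points and that in summits within 1000 bp from -2.25 to 1.43, both negative without replicate 1, while bound genes passed without replicate 2, and the off-promoter excess of the core on X from 3.50 to 4.44, passing without replicate 1. Of the same differences, bound genes reached 1.17 points with the window from 2000 bp upstream, which passed. With tRNA, miRNA, snoRNA and snRNA genes counted beside the protein-coding ones it was 1.68 (7.73% on X and 6.05% on the autosomes), which also passed. That setting is not a share of protein-coding genes alone. Of the tRNA genes in it, 43 of 276 on X and 8 of 336 on the autosomes had a summit. Summits within 2000 bp gave -0.710. The off-promoter excess of the core passed with the window from 500 bp upstream (4.23), with non-coding 5′ ends counted (4.55) and in windows of 25 bp to either side (4.44). Among the 831 highest peaks the X minus autosomal difference turned negative for introns (-1.50 points) and 3′ UTRs (-0.466), neither of which passed in any of these settings; 3′ UTRs ranged from -0.408 to 0.500 with a replicate left out. Words of 7 bases gave 8 calls, and a minimum of 20 windows left 1 of 5. The cause of these changes was not tested. No paired analysis was possible because both samples form 1 group. Peak lists without read depth limit what can be said of weak sites.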
